A study of Rattus norvegicus with 16 samples.

Results

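The miR-344 family is a set of small regulatory RNAs (microRNAs, miRNAs) known from rat and mouse brain. Its members were taken by name, as every row of the miRNA count tables that starts with rno-miR-344, which gave 8 rows of the 722 listed. They were counted by small RNA sequencing of total RNA from 2 brain regions of 60 day old rats, the amygdala, which processes fear and other emotions, and the dorsal raphe, the midbrain nucleus that sends serotonin to the forebrain. The rats came from 2 lines that the labels call High Responder (HR) and Low Responder (LR), names used for lines bred for high or low locomotion in a new environment. There were 4 groups of 4 libraries, HR amygdala, LR amygdala, HR dorsal raphe and LR dorsal raphe, with no treatment or genetic change named in any of them. The labels give neither sex nor whether each library is a different rat. The p-values therefore cover the spread among these libraries only, and part of it may be technical.

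A miRNA gene is transcribed into an RNA that folds into a hairpin. Enzymes cut the 2 arms of the hairpin, 5p and 3p, into mature RNAs, and usually 1 arm is kept in larger amounts. The mature RNA guides a protein complex to messenger RNAs and represses them, mainly through its seed, bases 2 to 8 counted from the 5′ end. In the RefSeq annotation of the rat genome GRCr8 the 7 miR-344 hairpins lie on 1 strand of chromosome 1, in the order Mir344b-2, Mir344b-1, Mir344b-3, Mir344a-2, Mir344-1, Mir344g and Mir344i. No protein-coding gene is annotated between them, and the protein-coding genes next after Mir344i are Ndn, Magel2, Mkrn3 and Peg12, imprinted genes known from the Prader-Willi region, which are expressed from the paternal copy. Coordinates are left out, because the build behind the counts is unknown.

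The mature sequences are shown because the members differ in their seeds and because some of the deposited rows could not be told apart. Capitals mark the seed.
miR-344-3p: uGAUCUAGccaaagccugaccgu
miR-344b-1-3p: gAUAUAACcaaagcccgacugu
miR-344b-3p: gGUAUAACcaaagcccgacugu
miR-344i: cUCUAGCCagggcuugacugca
miR-344b-5p: aGUCAGGCugcugguuauauuc
miR-344g: aGUCAGGCuccuggcaggaguc
miR-344a-5p: uCAGGCUCcuggcuagauu

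Of the 8 row names, 5 matched a RefSeq mature miRNA exactly. The row miR-344a-3p was matched to RefSeq's miR-344-3p through the hairpin Mir344-1, which has rno-mir-344a-1 as a synonym, and miR-344b-2-3p to RefSeq's miR-344b-3p through the hairpin Mir344b-2. The row miR-344a was named only.

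The seeds fall into groups that cut across the names. miR-344b-5p and miR-344g share the seed GUCAGGC. miR-344a-5p has CAGGCUC, which it shares with miR-344-5p of the hairpin Mir344-1 and with miR-484, a miRNA outside the family. miR-344-5p has no row of its own in the counts. miR-344b-1-3p has the seed AUAUAAC, which it shares with miR-410-3p, a miRNA of the imprinted Dlk1-Dio3 cluster. The other b hairpins, Mir344b-2 and Mir344b-3, give a 3p RNA that differs from it by 1 base of 22, G2A from miR-344b-3p to miR-344b-1-3p with positions counted from 1 at the 5′ end, and that base lies in the seed. No other rat miRNA in the RefSeq table has the seed GUAUAAC of miR-344b-3p, GAUCUAG of miR-344-3p or UCUAGCC of miR-344i. The 3p stretch of Mir344a-2 differs from miR-344-3p by 1 base of 23, C21U.

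An a, a b and a g hairpin are shown to place the arms of each kind, with the mature RNAs in capitals.
Mir344-1: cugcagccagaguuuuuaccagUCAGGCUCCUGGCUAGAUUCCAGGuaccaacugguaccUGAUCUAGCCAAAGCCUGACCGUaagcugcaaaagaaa
Mir344b-1: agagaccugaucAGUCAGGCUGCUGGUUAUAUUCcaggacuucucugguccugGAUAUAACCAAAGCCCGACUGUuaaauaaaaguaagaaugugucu
Mir344g: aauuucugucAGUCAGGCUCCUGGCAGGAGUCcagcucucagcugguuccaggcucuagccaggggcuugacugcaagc

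In a pairwise alignment Mir344b-2 and Mir344b-3 were identical over 71 bases, and Mir344b-1 had 70 of 71 bases in common with either. Mir344a-2 and Mir344-1 matched at 95.8% of aligned bases and Mir344g and Mir344i at 88.3%. Identity between a and b hairpins was 80.0% to 85.1%, and b hairpins matched Mir344g and Mir344i at 66.2% to 71.9%. From their place in the hairpin, miR-344g is a 5p RNA and miR-344i a 3p RNA, although their names carry no arm.

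**Figure D1:**
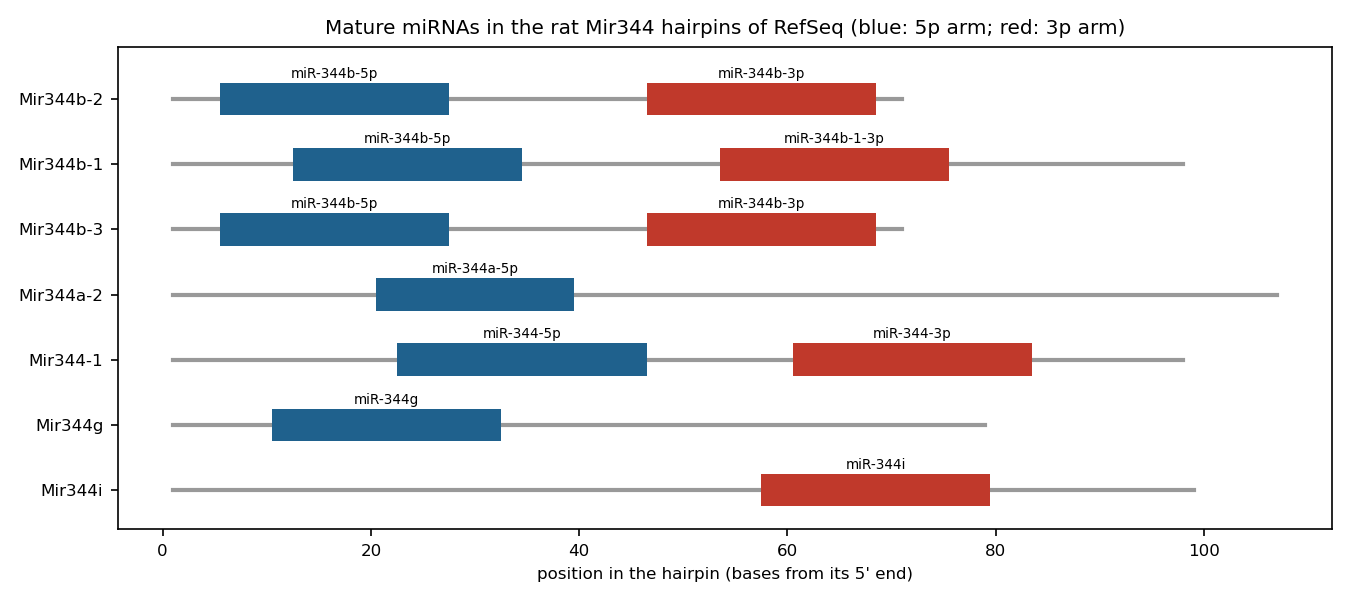
Place of each mature miRNA in the 7 rat Mir344 hairpins of RefSeq (x axis, bases from the 5′ end of the hairpin; one line per hairpin, in chromosomal order). Blue bars are RNAs of the 5p arm and red bars RNAs of the 3p arm; miR-344g lies on the 5p arm and miR-344i on the 3p arm.

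The libraries held 1741167 to 8134915 counts, and levels are counts per 1000000 (CPM) scaled between libraries by the trimmed mean of M values (TMM). At these depths 3 counts, the limit that a count of 0 allows, stood for 0.396 to 2.40 scaled CPM, which covers counting error only. LR dorsal raphe replicate 4 (2096188 counts) and HR amygdala replicate 1 (1741167 counts) lay farthest from their group means, with root mean square deviations of 1.03 and 0.968 on the log2 scale against 0.285 to 0.880 in the other libraries. The scaling factor of LR dorsal raphe replicate 4 was 0.596, against 0.871 to 1.27 elsewhere, which raises its scaled levels. The 4 neuron markers summed to 101977 to 119534 CPM in HR amygdala, 60605 to 88122 CPM in LR amygdala, 22939 to 42023 CPM in HR dorsal raphe and 26931 to 39722 CPM in LR dorsal raphe. No list used here marks either nucleus, so the dissection was not checked against markers.

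All 8 rows passed the filter on low counts, but they do not hold 8 measurements. The rows miR-344b-1-3p and miR-344b-2-3p had the same count in 16 of 16 libraries, from 988 to 5319. They are given below as 1 member, miR-344b-3p, and the counts do not say how much of it carries either seed. Its level, rank, shares and ratios below are those of 1 row. Whether both rows count the same reads or parts of them is not known. The row miR-344a equalled miR-344a-5p in 12 of 16 libraries and differed by at most 2 counts in the others, and it is not described further. This leaves 6 distinct members, miR-344a-3p, miR-344b-3p, miR-344i, miR-344b-5p, miR-344g and miR-344a-5p. How the authors counted reads that match several of these hairpins is unknown here, and the split between members is uncertain to that extent.

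The family was a small part of the miRNA pool and a larger one in amygdala. The 6 distinct members made up 0.284%, 0.353%, 0.277% and 0.279% of the counts in HR amygdala replicates 1 to 4 and 0.398%, 0.354%, 0.305% and 0.161% in LR amygdala. In HR dorsal raphe they made up 0.171%, 0.151%, 0.131% and 0.165%, and in LR dorsal raphe 0.155%, 0.133%, 0.152% and 0.169%. Of the 8 amygdala libraries 7 lay above all dorsal raphe libraries, and LR amygdala replicate 4 lay among them. These are unscaled shares, which the scaling factors do not touch. miR-344a-3p and miR-344b-3p held 93.3% to 97.5% of the family's counts in every library. Averaged over the libraries, miR-344a-3p ranked 72nd and miR-344b-3p 114th of the 722 miRNAs, followed by miR-344b-5p (268th), miR-344i (368th), miR-344g (557th) and miR-344a-5p (608th).

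miR-344a-3p, the 3p RNA of the Mir344-1 hairpin and the most abundant member, was higher in amygdala by 1.87 times. It stood at 1398, 2207, 2195 and 2199 CPM in HR amygdala, against 962, 1046, 830 and 1035 CPM in HR dorsal raphe. In LR amygdala it stood at 2114, 2205, 1886 and 1042 CPM, against 1018, 789, 1048 and 1417 CPM in LR dorsal raphe. The HR libraries of both regions do not overlap, while LR amygdala replicate 4 lies within the dorsal raphe range. After scaling, LR dorsal raphe replicate 4 lies above the other dorsal raphe libraries. Without scaling it stood at 844 CPM, within the 842 to 1219 CPM of the others. Averaged over the lines, the level was 1906 ± 447 CPM in amygdala and 1018 ± 190 CPM in dorsal raphe (SD, n = 8 libraries each), with a log2 fold change of 0.90 (SE 0.20, adjusted p = 0.00244 in edgeR's quasi-likelihood test).

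miR-344b-3p, from the 3p arm of the b hairpins, rose by a like amount. Its levels were 1144, 1054, 879 and 783 CPM in HR amygdala, against 322, 377, 342 and 447 CPM in HR dorsal raphe. In LR amygdala they were 1175, 925, 1100 and 574 CPM, against 348, 380, 412 and 1346 CPM in LR dorsal raphe. Apart from LR dorsal raphe replicate 4, which had the highest level of all 16 libraries, every dorsal raphe library lay below every amygdala library. Without scaling that library stood at 801 CPM, against 367 to 469 CPM in the other dorsal raphe libraries. The averages were 954 ± 206 CPM in amygdala and 497 ± 345 CPM in dorsal raphe (SD, n = 8 libraries each), with a log2 fold change of 0.99 (SE 0.27, edgeR adjusted p = 0.0133). Without LR dorsal raphe replicate 4 the log2 fold change was 1.37 (edgeR adjusted p = 1.0e-05).

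miR-344b-5p, the less abundant arm of the same b hairpins, was also higher in amygdala. It stood at 54.8, 54.0, 89.8 and 94.6 CPM in HR amygdala, against 37.9, 63.1, 33.1 and 74.1 CPM in HR dorsal raphe, and the libraries overlap. In LR amygdala it stood at 97.4, 148, 111 and 103 CPM, against 50.3, 59.9, 52.2 and 48.1 CPM in LR dorsal raphe, with no overlap. This arm had LR amygdala replicate 4 above all dorsal raphe libraries. For miR-344a-3p that library lay within the dorsal raphe range, and for miR-344b-3p only LR dorsal raphe replicate 4 lay above it. After scaling, LR dorsal raphe replicate 4 lay close to its group, at 48.1 CPM. Without scaling it had the lowest share of all libraries, 0.00286% of its counts against 0.00521% to 0.00639% in the rest of its group. The averages were 94.0 ± 30.2 CPM in amygdala and 52.3 ± 13.4 CPM in dorsal raphe (SD, n = 8 libraries each), with a log2 fold change of 0.81 (SE 0.21, edgeR adjusted p = 0.00934).

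The 3 remaining members did not pass the test. miR-344i, a 3p RNA, averaged 19.0 ± 5.78 CPM in amygdala and 14.1 ± 3.07 CPM in dorsal raphe (SD, n = 8 libraries each; log2 fold change 0.44, SE 0.22, edgeR adjusted p = 0.140). It ranged from 13.9 to 27.7 CPM in HR amygdala, 9.64 to 22.9 CPM in LR amygdala, 11.5 to 18.6 CPM in HR dorsal raphe and 10.6 to 16.8 CPM in LR dorsal raphe, and these ranges overlap. The lowest of the 16 values was that of LR amygdala replicate 4. Without that library the log2 fold change of miR-344i was 0.64 (edgeR adjusted p = 0.0259), and without HR amygdala replicate 4, the lowest of its group, it was 0.63 (edgeR adjusted p = 0.0307). Without the shallowest library of LR dorsal raphe and of HR amygdala together it was 0.61 (edgeR adjusted p = 0.0372).

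miR-344g and miR-344a-5p, both 5p RNAs, had few counts. miR-344g had 7 to 26 counts in amygdala libraries and 3 to 13 in dorsal raphe libraries, or 3.10 ± 1.30 against 1.90 ± 0.568 CPM (SD, n = 8 libraries each; log2 fold change 0.70, SE 0.34, edgeR adjusted p = 0.139). miR-344a-5p had 4 to 13 counts in amygdala libraries and 4 to 8 in dorsal raphe libraries (log2 fold change 0.30, SE 0.41, edgeR adjusted p = 0.594). It ranged from 0.826 to 3.70 CPM over the 16 libraries.

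**Figure D2:**
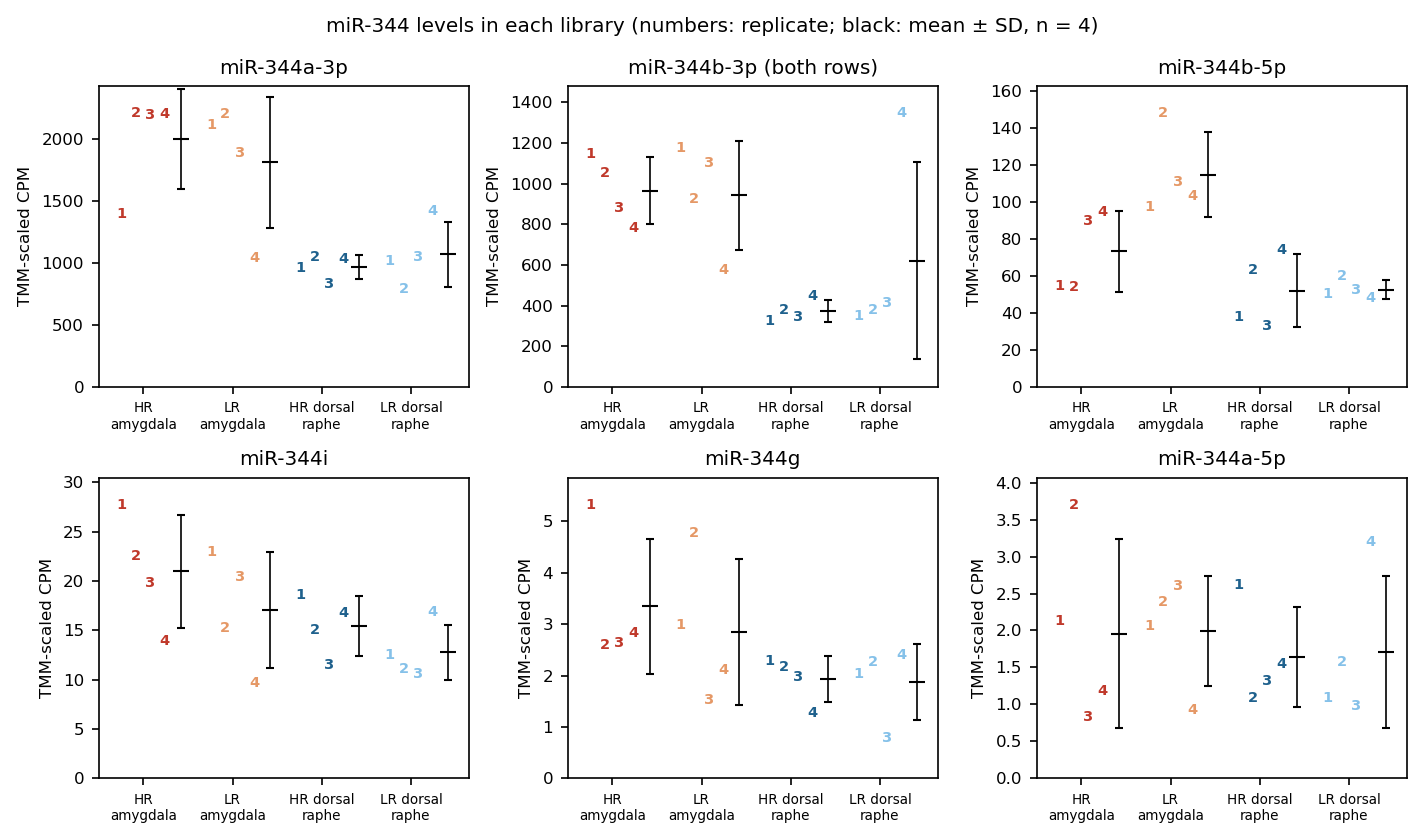
Level of each distinct miR-344 member in every library (y axis, TMM-scaled counts per 1000000; x axis, the 4 groups). Coloured numbers are the replicates and black bars the mean ± SD of 4 libraries; LR dorsal raphe replicate 4 stands at 1346 CPM for miR-344b-3p and LR amygdala replicate 4 at 1042 CPM for miR-344a-3p.

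Taken as a list, 3 of the 6 distinct members were higher and none was lower in amygdala averaged over the lines, where 9.39% of the 639 miRNAs tested were called higher and 14.9% lower, 24.3% in all. That split was 60 higher of 155 called in edgeR and 100 of 203 in DESeq2. It was 121 of 218 without HR amygdala replicate 4, 106 of 212 without LR dorsal raphe replicate 4, 95 of 179 without LR amygdala replicate 4, 93 of 195 without HR dorsal raphe replicate 1 and 128 of 212 without the shallowest library of LR dorsal raphe and of HR amygdala. None of the 6 members separated all 8 amygdala from all 8 dorsal raphe libraries, where 1.88% of all miRNAs were higher and 4.69% lower without overlap. The members' median log2 fold change was 0.75, against -0.08 over all miRNAs tested. Of the 14 neuron-enriched miRNAs listed for comparison, which include the 4 neuron markers, 5 were higher and none lower, with a median of 0.54. Among them miR-128-3p, a neuronal miRNA, had a log2 fold change of 2.23, miR-132-3p, which neuronal activity induces, 1.73, and miR-124-3p, the most neuron-specific of them, -0.47 (edgeR adjusted p = 0.256). The 4 neuron markers are these and miR-137-3p, which had 0.92 (edgeR adjusted p = 0.0537). Of the 4, 2 were called higher, miR-128-3p and miR-132-3p, so the rise of their sum in amygdala does not hold for each marker.

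Markers of other cell types moved between the regions too. Choroid plexus markers were higher in amygdala (3 of 3 called), with summed levels of 8265 to 17105 CPM in HR amygdala, 999 to 9226 CPM in LR amygdala, 1533 to 2909 CPM in HR dorsal raphe and 2064 to 3825 CPM in LR dorsal raphe. Muscle markers were lower (4 of 4), at 232 to 366 CPM in HR amygdala, 216 to 402 CPM in LR amygdala, 1344 to 1632 CPM in HR dorsal raphe and 1377 to 5085 CPM in LR dorsal raphe. Oligodendrocyte markers were lower as well (2 of the 2 that the files list), at 5284 to 7961, 3573 to 10079, 7424 to 8453 and 9902 to 37473 CPM in the same order of groups. These calls are averaged over the lines. Within the lines, choroid plexus markers were called in HR rats (3 of 3) and not in LR rats (0 of 3). Oligodendrocyte markers were called in LR rats (2 of 2) and not in HR rats (0 of 2), and muscle markers in both (4 of 4). None of these was called in the test of whether the regional difference depends on the line. No erythrocyte (3 tested), vessel (4) or microglia (4) marker was called, and no marker was at 0 in every library. LR amygdala replicate 4, low for the 3p members, had the lowest choroid plexus sum of all libraries, 999 CPM, and a neuron marker sum of 88122 CPM, the highest of its group. Its oligodendrocyte sum of 10079 CPM, against 3573 to 5279 CPM in the rest of its group, was the highest of the amygdala libraries. LR dorsal raphe replicate 4, high for miR-344b-3p, had the highest oligodendrocyte sum of all libraries, 37473 CPM against 9902 to 11947 CPM in the rest of its group, and the highest muscle sum, 5085 CPM against 1377 to 1816 CPM. The part of these markers in the miR-344 differences was not tested, and in bulk tissue fewer cells of a type and less RNA per cell cannot be told apart.

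Within each line the same direction was seen, with fewer calls. In HR rats 2 of the 6 members were higher in amygdala, where 6.57% of all miRNAs tested were called higher (42 of the 84 called, against 72 of 136 with DESeq2, 72 of 128 without HR amygdala replicate 4 and 86 of 138 without the shallowest library of LR dorsal raphe and of HR amygdala). miR-344b-3p had a log2 fold change of 1.37 (SE 0.39, edgeR adjusted p = 0.0238) and miR-344a-3p of 1.05 (SE 0.28, adjusted p = 0.0170). miR-344b-5p had 0.50 (SE 0.30, adjusted p = 0.271) and miR-344i 0.44 (SE 0.30, adjusted p = 0.336). Without both of those shallow libraries miR-344b-5p had 0.75 and was called (adjusted p = 0.0499). The groups did not overlap for miR-344a-3p, miR-344b-3p and miR-344g, where 11.1% of all miRNAs were higher without overlap. For miR-344g this rested on few counts, 7 to 16 in HR amygdala and 5 to 12 in HR dorsal raphe. Its unscaled shares did overlap, with HR dorsal raphe replicate 1 at 2.9e-04% against 2.3e-04% to 5.7e-04% in HR amygdala. The call of miR-344a-3p was lost without HR amygdala replicate 3 (0.98, adjusted p = 0.0515) and that of miR-344b-3p without HR dorsal raphe replicate 1 (1.30, adjusted p = 0.0587).

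In LR rats only miR-344b-5p passed, with a log2 fold change of 1.12 (SE 0.30, edgeR adjusted p = 0.0176), where 3.60% of all miRNAs tested were called higher (23 of the 90 called, against 40 of 109 with DESeq2 and 34 of 88 with library totals as scaling). It was 37 of 105 with the replicate block, 43 of 84 without LR dorsal raphe replicate 4, 39 of 94 without HR amygdala replicate 1, 19 of 47 without LR amygdala replicate 3 and 75 of 129 without both shallow libraries. It was also the one member whose LR groups did not overlap, where 6.10% of all miRNAs were higher without overlap. miR-344a-3p had 0.76 (SE 0.28, adjusted p = 0.0763), miR-344b-3p 0.60 (SE 0.39, adjusted p = 0.309) and miR-344i 0.44 (SE 0.31, adjusted p = 0.361). Without LR dorsal raphe replicate 4 miR-344b-3p had 1.41 (adjusted p = 7.9e-04) and miR-344a-3p 1.03 (adjusted p = 0.0141), and 3 members were called. Without LR amygdala replicate 4 miR-344a-3p had 1.09 (adjusted p = 0.00815) and miR-344b-3p 0.96 (adjusted p = 0.114). miR-344a-3p was also called in LR rats when HR dorsal raphe replicate 2, 3 or 4 or HR amygdala replicate 1, 2 or 4 was left out, at 0.92 to 0.99 (adjusted p = 0.0117 to 0.0428).

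Whether the regional difference itself depends on the line is tested by their interaction. It called none of the 6 members and 0% of all miRNAs in edgeR, with 81 of 639 at an unadjusted p under 0.05. DESeq2 called 22 miRNAs, none of them a member, and limma-voom 0. The interaction was 0.77 (SE 0.54, edgeR adjusted p = 0.613) for miR-344b-3p, 0.28 (SE 0.39, adjusted p = 0.861) for miR-344a-3p and -0.62 (SE 0.42, adjusted p = 0.583) for miR-344b-5p. For miR-344b-3p it was -0.10 without LR dorsal raphe replicate 4.

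**Figure D3:**
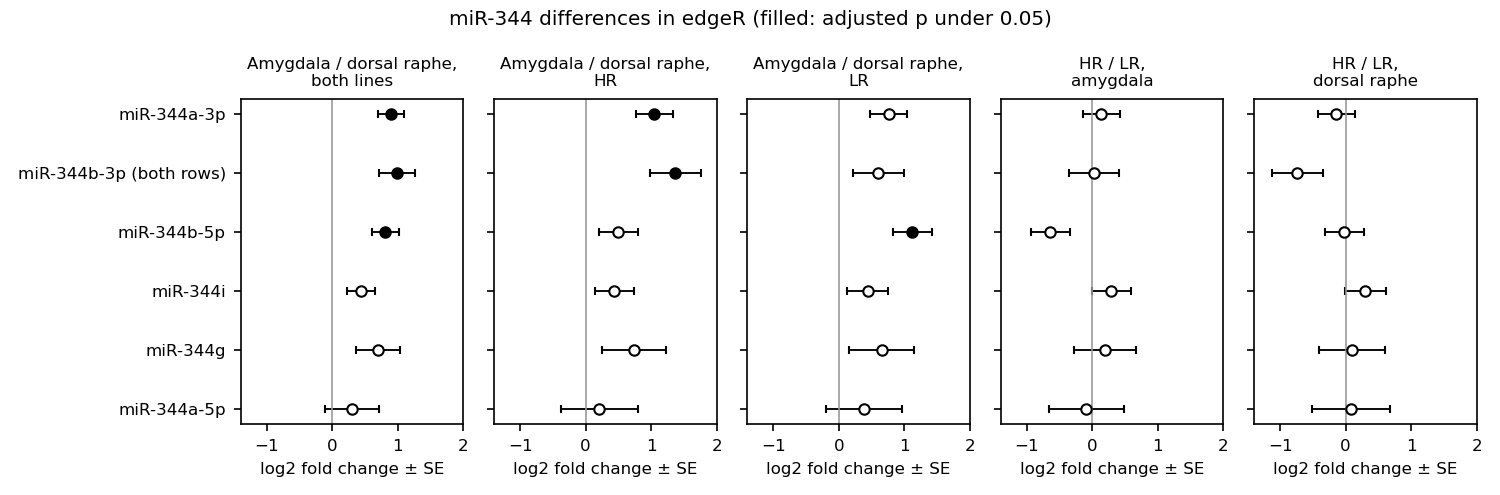
Log2 fold change (x axis, with bars of 1 SE) of each distinct member (y axis) for amygdala over dorsal raphe in both lines, in HR and in LR, and for HR over LR in amygdala and in dorsal raphe. Filled points passed an adjusted p of 0.05 in edgeR; all filled points lie in the region comparisons, between 0.81 and 1.37.

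HR and LR rats were then compared within each region. In amygdala edgeR called none of the 6 members and 0% of the 639 miRNAs, with 65 at an unadjusted p under 0.05. DESeq2 called 19 miRNAs, none of them a member, and limma-voom 0. miR-344b-5p was the one member whose groups did not overlap, at 54.0 to 94.6 CPM in HR amygdala against 97.4 to 148 CPM in LR amygdala, where 3.76% of all miRNAs were lower, 5.01% higher and 8.76% either way without overlap. It averaged 73.3 ± 21.9 CPM in HR and 115 ± 22.6 CPM in LR amygdala (SD, n = 4 libraries each; log2 fold change -0.64, SE 0.30, edgeR adjusted p = 0.476). The other arm of the same hairpins, miR-344b-3p, averaged 965 ± 164 and 943 ± 267 CPM (0.03, SE 0.38, adjusted p = 0.971). miR-344a-3p averaged 2000 ± 401 CPM in HR and 1812 ± 531 CPM in LR amygdala (0.14, SE 0.28, adjusted p = 0.847), and miR-344i had 0.29 (SE 0.30, adjusted p = 0.754).

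In dorsal raphe edgeR again called none of the members and 0% of all miRNAs, and 70 had an unadjusted p under 0.05. DESeq2 called 0, as did limma-voom. No member's groups were free of overlap, against 4.23% of all miRNAs. miR-344b-3p averaged 372 ± 54.9 CPM in HR and 621 ± 484 CPM in LR dorsal raphe (SD, n = 4 libraries each; log2 fold change -0.74, SE 0.39, edgeR adjusted p = 0.578). This difference rested on LR dorsal raphe replicate 4, without which it was 0.10. miR-344a-3p averaged 968 ± 99.6 CPM in HR and 1068 ± 260 CPM in LR dorsal raphe (-0.14, SE 0.28, adjusted p = 0.991). miR-344b-5p averaged 52.0 ± 19.8 and 52.6 ± 5.15 CPM (-0.02, SE 0.30, adjusted p = 0.991), and miR-344i had 0.30 (SE 0.31, adjusted p = 0.939).

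The order of the group means was HR amygdala, LR amygdala, LR dorsal raphe and HR dorsal raphe for miR-344a-3p and miR-344b-3p. No neighbours in this order passed the test: neither the 2 amygdala groups, nor the 2 dorsal raphe groups, nor LR amygdala and LR dorsal raphe, whose libraries overlapped. miR-344b-5p was highest in LR amygdala and then HR amygdala, with LR and HR dorsal raphe below, and of these LR amygdala passed against LR dorsal raphe.

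The arms can be compared within a library, free of the scaling. Of the miR-344b counts, the 5p arm held 4.57%, 4.87%, 9.26% and 10.8% in HR amygdala and 7.66%, 13.8%, 9.14% and 15.2% in LR amygdala. It held 10.5%, 14.3%, 8.84% and 14.2% in HR dorsal raphe and 12.6%, 13.6%, 11.3% and 3.45% in LR dorsal raphe. The lowest shares were those of LR dorsal raphe replicate 4 (Wilson 95% interval 2.69% to 4.41%, counting error only), with 60 of 1740 counts, and of HR amygdala replicates 1 and 2. The 3p arm was the major arm in every library. The miR-344a-5p row held 0.038% to 0.27% of the counts of miR-344a-5p and miR-344a-3p together. RefSeq matches these rows to different hairpins, Mir344a-2 and Mir344-1. The 19 bases of miR-344a-5p also begin miR-344-5p, the 5p RNA of Mir344-1. The hairpin behind the counts of the miR-344a-5p row, and so whether this is a share between arms of 1 hairpin, is not known.

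Over the 6 distinct members the 5p arm held 2.57% ± 0.616 of the counts in HR amygdala, 4.37% ± 1.36 in LR amygdala, 3.86% ± 0.928 in HR dorsal raphe and 3.57% ± 1.32 in LR dorsal raphe (SD, n = 4 libraries each). The difference between HR and LR amygdala was -1.80 percentage points (exact permutation p = 0.0571, two-sided, the smallest possible with 4 against 4 libraries being 0.0286; adjusted p = 0.214 over 5 comparisons). HR was lower in 4 of 4 same-numbered pairs, with differences of -2.94 to -0.63 points, and the paired exact permutation test gave p = 0.125, the smallest possible with 4 pairs (adjusted p = 0.312). Between amygdala and dorsal raphe it was -1.29 points in HR rats (exact permutation p = 0.0857, adjusted p = 0.214), 0.80 points in LR rats (exact permutation p = 0.457, adjusted p = 0.714) and -0.25 points over both lines (exact permutation p = 0.692, adjusted p = 0.714). Between HR and LR dorsal raphe it was 0.29 points (exact permutation p = 0.714, adjusted p = 0.714). None passed the test.

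The ratio of miR-344b-3p to miR-344a-3p counts was 0.818 in HR amygdala replicate 1 and 0.950 in LR dorsal raphe replicate 4, and 0.335 to 0.583 in the other 14 libraries. These 2 libraries have the lowest totals of their groups and stand farthest from their group means. The libraries with the lowest totals of the other groups had 0.335 (HR dorsal raphe replicate 1, 2419326 counts), the lowest ratio of all, and 0.556 (LR amygdala replicate 1, 3742902 counts). The part of depth in this ratio was not tested.

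**Figure D4:**
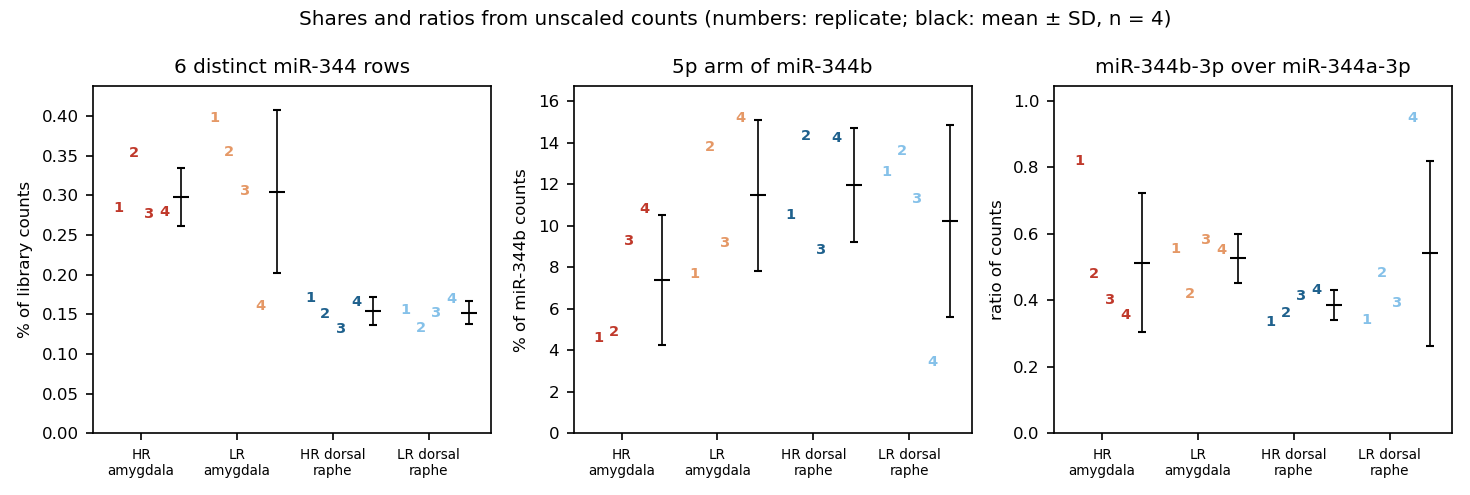
Unscaled measures in every library by group. Left, the 6 distinct miR-344 members as a percentage of all counts; middle, the 5p arm as a percentage of miR-344b counts; right, the ratio of miR-344b-3p to miR-344a-3p counts. Coloured numbers are replicates and black bars the mean ± SD of 4 libraries; LR amygdala replicate 4 lies among the dorsal raphe libraries on the left at 0.161%, and LR dorsal raphe replicate 4 has the highest ratio on the right at 0.950.

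Across the 16 libraries the members did not move as one. On the log2 CPM scale miR-344a-3p and miR-344b-3p, on different hairpins, had a Pearson r of 0.83. miR-344b-3p and miR-344b-5p, arms of the same hairpins, had 0.49, and miR-344b-5p and miR-344i had 0.09. These are descriptions over libraries of 2 regions that share their depth and scaling, with no test. The miRNAs outside the family whose log2 CPM was most like that of the summed 8 rows over the 16 libraries were miR-7a-5p (r = 0.936), miR-218a-2-3p (0.935), miR-504 (0.929), miR-1298 (0.910) and miR-128-2-5p (0.897). With each distinct member counted once they were miR-1298 (0.929), miR-218a-2-3p (0.925), miR-504 (0.912), miR-7a-5p (0.909) and miR-448-3p (0.896).

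The miRNAs outside the family that share a seed with a member were not called between the regions. miR-410-3p, with the seed of miR-344b-1-3p, stood at 934 ± 482 CPM in amygdala and 1078 ± 134 CPM in dorsal raphe (SD, n = 8 libraries each; log2 fold change -0.21, SE 0.34, edgeR adjusted p = 0.646). On the CPM scale its mean was close to that of miR-344b-3p in amygdala and above it in dorsal raphe. In amygdala it ranged from 159 to 1408 CPM, and miR-344b-3p from 574 to 1175 CPM. How much of miR-344b-3p carries that seed is not known. miR-484, with the seed of miR-344a-5p, stood at 101 ± 109 and 97.3 ± 112 CPM (-0.08, SE 0.42, adjusted p = 0.887). The differences between these miRNAs and the members were not tested.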

How the data were processed

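Read counts per mature miRNA were deposited as 1 table of 722 rows for each of 16 libraries, without normalization. RNA was isolated with a miRNeasy kit and libraries were made by an Illumina small RNA protocol with size selection on a Pippin instrument, per the labels' protocols. Bowtie2, bedtools 2.14.2 and cutadapt 1.3.1 are listed in the submitters' processing notes. Their settings, the genome build and how multiply matching reads were counted: not given in the sources used here.

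edgeR 4.0.16 (R 4.3.3) was run on all miRNAs: filterByExpr (minimum count 10, minimum total 15; 639 kept, 83 dropped), TMM factors, and the robust quasi-likelihood test, fitted jointly to the 4 group means. Benjamini-Hochberg adjustment covered all 639 (threshold 0.05). A prior count of 2 was added for log2 CPM. The script was tested on simulated counts with 200 changed miRNAs. Shares were compared by exact permutation tests. Sequences are from RefSeq (GRCr8). Alternatives were DESeq2 1.42.0, limma-voom (limma 3.58.1), library totals as scaling, no filter, blocks by replicate number and leaving out libraries. Over 120 library pairs, chi-square divided by its degrees of freedom was at least 55.4, so none was a copy.

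The labels number the libraries 1 to 4 in each group. Same-numbered HR and LR amygdala libraries deviated together from their group means (correlations 0.69, 0.29, 0.21 and 0.51), which met the criterion of 0.1 for pairing. The other pairs of groups each had a correlation that missed it. Every member row was named, as were the 5 most similar miRNAs by Pearson r. Members, lists and tests were chosen with earlier results of these data known.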

Additional observations from a re-analysis of the deposited data

Results flagged for a closer look

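Within groups of 4 libraries, 36 sets of values were screened for a library far from the other 3, which chance gives in about 1 set in 20, and 3 stood out. miR-344a-3p was low in HR amygdala replicate 1, at 1398 CPM against 2195 to 2207 CPM in the other 3. miR-344b-3p was high in LR dorsal raphe replicate 4, at 1346 CPM against 348 to 412 CPM. miR-344g was high in HR amygdala replicate 1, at 5.32 CPM against 2.59 to 2.82 CPM, from 10 counts. Each of these 2 libraries had the lowest total of its own group.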

How the results depend on the processing

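The rises of miR-344a-3p, miR-344b-3p and miR-344b-5p in amygdala averaged over the lines passed under all 23 alternatives each, with log2 fold changes of 0.86 to 1.24, 0.92 to 1.49 and 0.75 to 1.04. In LR rats 1 member was called, against 2 with DESeq2, 3 with library totals as scaling, 3 without the shallowest libraries of LR dorsal raphe and HR amygdala, and 1 to 3 when 1 library was left out. In HR rats 2 were called, against 1 to 2 when 1 library was left out, and miR-344b-5p was called as well without both shallow libraries (0.75). Signs that turned were all of values that did not pass. With library totals, the line difference in dorsal raphe was 0.15 for miR-344a-3p and 0.17 for miR-344b-5p (0.09 with DESeq2), that in amygdala -0.06 for miR-344b-3p, and the interaction -0.13 for miR-344a-3p. This scaling moved the median of all miRNAs from -0.06 to 0.14 in the first of these comparisons and from 0.09 to -0.24 in the interaction. Without both shallow libraries the dorsal raphe line difference was 0.11 for miR-344a-3p, 0.05 for miR-344b-3p and 0.01 for miR-344b-5p, the amygdala one -0.08 for miR-344b-3p, the interaction -0.13 for miR-344b-3p and the 5p share difference between the lines in dorsal raphe -0.27 points. Leaving out 1 library gave ranges of -0.21 to 0.16, -0.86 to 0.10 and -0.14 to 0.26 for these 3 members in dorsal raphe, 0.00 to 0.27 and -0.09 to 0.15 for miR-344a-3p and miR-344b-3p in amygdala, -0.05 to 0.34 and -0.10 to 0.86 for their interactions, and -0.27 to 0.81 points for that share. The cause was not tested, apart from LR dorsal raphe replicate 4, given with the results. With the replicate block, and with a replicate block within each region where it was run, 3 members were called averaged over the lines, 2 in HR, 1 in LR and 0 between the lines, and no member's call changed. Over all miRNAs, calls between regions in HR rats numbered 84, against 136 with DESeq2 and 138 without both shallow libraries. Paired testing of the 5p share in amygdala (replicate block, -1.80 points) was added after seeing the data. Counting duplicate rows once, also chosen after seeing the data, changed no member's call.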
